A study of Mus musculus with 12 samples.

Results

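The transcripts of 10 genes that mark macrophages were followed through 4 treatments of a mouse tumour. They comprise 6 pan-macrophage genes, Csf1r, Adgre1, Cd68, Lyz2, Cd14 and Itgam, and 4 genes of lipid-associated macrophages, Trem2, Apoe, Gpnmb and Spp1. The genes were found by name in the deposited transcript table and the values of their transcripts were added, which gave 10 genes of 53670 gene names, and all 10 were among the 14231 genes with a mean level high enough to be tested. The tumours came from LLC, the Lewis lung carcinoma line, which grows in C57BL/6 mice. Per the labels, LLC cells in Matrigel were placed under the flank skin of female C57BL/6 mice aged 6 to 8 weeks, with 6 mice to a group. Treatment began at a tumour volume of at least 100 mm3, and 100 µL was injected into the peritoneum 2 times a week for 4 weeks. The 4 groups, with 3 tumours each, received brivanib together with cisplatin (combination), brivanib alone, cisplatin alone or vehicle. Brivanib inhibits the kinases of VEGF and FGF receptors, and cisplatin is a platinum drug that cross-links DNA. The series title puts brivanib forward as a sensitizer of tumours to chemotherapy. Dose amounts are not stated in the labels. They number the tumours but do not say that they came from separate animals, so p-values measure the spread between these samples, which may be technical in part.

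Tumour-associated macrophages derive largely from blood monocytes and depend on signalling through the receptor encoded by Csf1r. Within tissues that hold much lipid or dead cell debris, some macrophages take up a state with high Trem2, Apoe, Gpnmb and Spp1, in which lipid is sensed, taken up and moved out of the cell. Osteoclasts and many tumour cells also make Spp1 or Gpnmb, and the liver makes most plasma Apoe. RNA came from bulk tumour, so that fewer cells of a type and less RNA per cell cannot be told apart.

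Levels are in FPKM, which divides a transcript's fragments by its length and by the library's total, so that genes can be compared. The 12 libraries held 17160875 to 30942897 recovered fragments. Brivanib 5 stood apart, with 38.087% of its fragments on ribosomal-like features, against 0.296% to 0.643% in the other 11. The total behind its deposited FPKM scale was smaller than its recovered fragments, and its FPKM values added to 921510, against 471828 to 527657 in the other 11. Rescaling every library to the same FPKM total moved the all-gene median of the log2 fold change to -0.34 for brivanib against vehicle, compared with -0.01 on the deposited scale. Skeletal muscle marker genes had a mean log2(FPKM + 1) of 3.42 in brivanib 3, 3.24 in brivanib 5 and 1.92 in combination 2. Cisplatin 1 and 3 were at 1.175 and 1.025. Combination 3 and 4 were at 0.334 and 0.305, cisplatin 2 at 0.295, brivanib 2 at 0.30 and the vehicle libraries at 0.32 to 0.36. Keratin and other epithelial markers were near 0, with Krt18 and Krt5 at 0 in all libraries.

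Averaged over all 12 tumours, Spp1 stood at 966 FPKM, Lyz2 at 238, Gpnmb at 192, Apoe at 67.1, Cd68 at 29.8, Cd14 at 18.2, Itgam at 15.8, Csf1r at 8.04, Adgre1 at 7.57 and Trem2 at 5.34. Between the highest and lowest tumour, Adgre1 varied 14.1-fold and Apoe 6.00-fold, whereas Cd14 varied 1.86-fold and Spp1 1.89-fold.

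**Figure D1:**
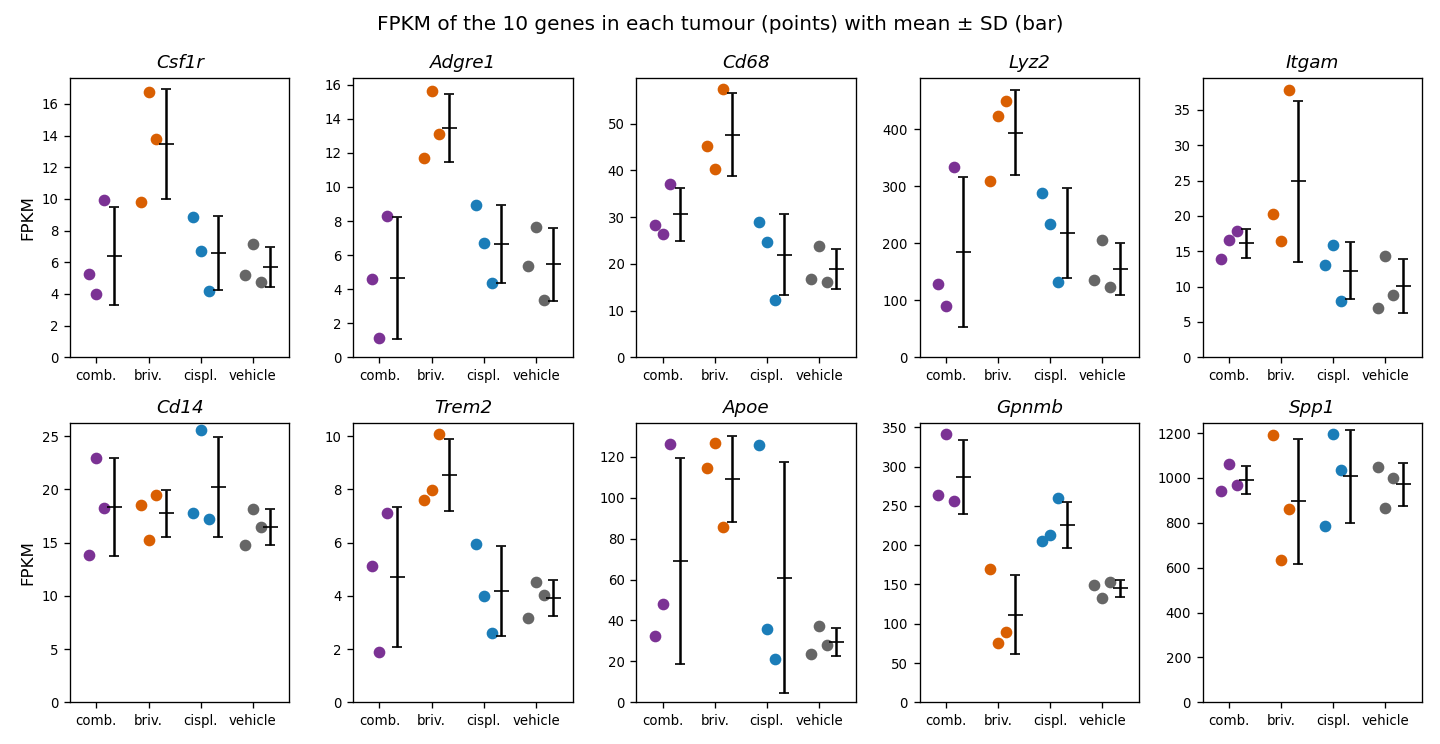
FPKM (vertical axis, linear from 0) of each of the 10 genes in the combination, brivanib, cisplatin and vehicle tumours; each point is 1 tumour and the bar gives the mean ± SD of 3. Brivanib tumours hold the highest values of Csf1r, Adgre1, Cd68, Lyz2 and Trem2 on average, while Gpnmb is on average highest in combination tumours, at 256 to 341 FPKM.

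Most pan-macrophage genes were highest in the tumours given brivanib alone, with log2 fold changes of 1.10 to 1.36 against vehicle for 5 of the 6, of which Cd68 passed the test. In the tumours given both drugs Csf1r, Adgre1 and Lyz2 were closer to vehicle on this scale, while Cd68 and Itgam lay between vehicle and brivanib, at 0.68 and 0.67 above vehicle and -0.62 and -0.52 from brivanib. Csf1r (chromosome 18, 61105572 to 61132149 on GRCm38) encodes the receptor for the growth factors CSF1 and IL-34 that keep macrophages alive. It measured 5.25, 4.03 and 9.91 FPKM in combination tumours 2, 3 and 4, 9.82, 16.8 and 13.8 in brivanib tumours 2, 3 and 5, 8.89, 6.72 and 4.19 in cisplatin tumours 1, 2 and 3, and 5.19, 7.16 and 4.75 in vehicle tumours 2, 3 and 5. All 3 brivanib tumours lay above all vehicle and cisplatin tumours, whereas combination 4 reached the lowest brivanib value. The log2 fold change was 1.10 ± 0.31 for brivanib against vehicle (± SE, limma, adjusted p = 0.125), and -1.02 ± 0.31 for the combination against brivanib (adjusted p = 0.0874). Neither passed the threshold of 0.05, where p is adjusted (Benjamini-Hochberg) for all 14231 genes.

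Adgre1 (chromosome 17, 57358686 to 57483529) encodes F4/80, the surface protein by which mouse macrophages are usually sorted. Its values were 4.62, 1.11 and 8.29 FPKM in combination tumours, 11.7, 15.6 and 13.1 in brivanib tumours, 8.95, 6.71 and 4.34 in cisplatin tumours, and 5.34, 7.66 and 3.37 in vehicle tumours. All brivanib tumours were above every tumour of the other 3 groups. The single lowest value was that of combination 3, from 83 fragments. Fold changes on the log2 scale were 1.21 ± 0.44 for brivanib against vehicle (limma, adjusted p = 0.286) and -1.59 ± 0.44 for the combination against brivanib (adjusted p = 0.0709). The split of Adgre1 fragments between its transcripts was not even. A shorter form (ENSMUST00000004850) held 70.3% to 77.7% of the FPKM in combination 4, brivanib 3, brivanib 5 and cisplatin 1, and 0 in the other 8 libraries. With the most abundant transcript in place of the sum, the fold change for brivanib against vehicle was 0.17, a value that leaves out what was assigned to the shorter form.

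Cd68 (chromosome 11, 69664213 to 69666153), a sialoprotein of late endosomes and lysosomes in phagocytes, was the pan-macrophage gene that passed the test. Combination tumours had 28.4, 26.4 and 37.1 FPKM, brivanib tumours 45.3, 40.2 and 57.4, cisplatin tumours 29.0, 24.7 and 12.3, and vehicle tumours 16.7, 23.9 and 16.0. The lowest brivanib tumour was above the highest tumour of every other group, and the combination tumours lay between brivanib and vehicle without overlapping either. Brivanib tumours averaged 47.6 ± 8.86 FPKM and vehicle tumours 18.9 ± 4.37 (SD, n = 3 each), a log2 fold change of 1.30 ± 0.27 (± SE, limma, adjusted p = 0.0319). The call was narrow: limma's adjusted p was 0.142 without brivanib 5, 0.0708 without brivanib 2, 0.0528 without brivanib 3, 0.143 without vehicle 2, 0.0527 without vehicle 3, 0.12 without vehicle 5 and 0.0518 without combination 2. For the combination the log2 fold change was 0.68 ± 0.27 against vehicle (adjusted p = 0.204) and -0.62 ± 0.27 against brivanib (adjusted p = 0.21).

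The window from 250 bases before to 50 bases after the RefSeq start of Cd68 (GRCm38.p6, chr11:69666121-69666420, minus strand) is shown because Cd68 is 1 of 2 members called in any comparison, and the other, Gpnmb, is printed further on for comparison. Capitals mark GAGGAA, the core bound by PU.1, the factor that sets the macrophage lineage, and TGAGTCA or TGACTCA, the site of AP-1, each searched on both strands.
Cd68: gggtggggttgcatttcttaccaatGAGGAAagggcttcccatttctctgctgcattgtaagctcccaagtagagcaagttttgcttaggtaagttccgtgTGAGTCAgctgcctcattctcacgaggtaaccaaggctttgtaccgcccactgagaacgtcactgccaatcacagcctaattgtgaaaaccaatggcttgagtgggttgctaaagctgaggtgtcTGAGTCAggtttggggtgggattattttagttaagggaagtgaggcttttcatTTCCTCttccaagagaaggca
The window holds 2 matches to GAGGAA, 1 of them on the opposite strand, and 2 to TGAGTCA. RefSeq promoter entries were found for 7 of the 10 members, 10 entries in all. GAGGAA was in 6 of these 10 entries and in 28.3% of 32851 promoter windows of mouse genes, and an AP-1 site in 2 of 10 entries and 5.2% of all windows. These are matches of letters only.

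Lyz2 (chromosome 10, 117277331 to 117282321), lysozyme, is the most abundant of the pan-macrophage transcripts and is also made by neutrophils. It stood at 129, 90.4 and 334 FPKM in combination tumours, 309, 424 and 449 in brivanib tumours, 289, 233 and 132 in cisplatin tumours, and 136, 206 and 123 in vehicle tumours. Combination 4 reached into the brivanib range, while combination 2 lay within the vehicle range and combination 3 below it. The log2 fold change for brivanib against vehicle was 1.36 ± 0.42 (limma, adjusted p = 0.183), and for the combination against brivanib -1.30 ± 0.42 (adjusted p = 0.104). The near-identical Lyz1 was listed at 0.276 to 6.25 FPKM, so the division of fragments between the copies is uncertain.

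Itgam (chromosome 7, 128062640 to 128118491) encodes CD11b, the alpha chain of complement receptor 3 on macrophages, monocytes and neutrophils. FPKM values were 13.9, 16.5 and 17.9 in combination tumours, 20.3, 16.4 and 37.9 in brivanib tumours, 12.99, 15.8 and 8.00 in cisplatin tumours, and 7.02, 14.4 and 8.86 in vehicle tumours. Brivanib did not overlap vehicle but did overlap the combination, and brivanib 5 was the highest of all 12. In that library 25.6 of the 37.9 FPKM were assigned to a short coding transcript (ENSMUST00000106240) that was at 0 in all others except cisplatin 2. A read-through transcript to the next gene carries the same name and held 4.78 FPKM in cisplatin 1. The log2 fold change was 1.19 ± 0.32 for brivanib against vehicle (limma, adjusted p = 0.104).

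Cd14 (chromosome 18, 36725074 to 36726736), the co-receptor that hands bacterial lipopolysaccharide to TLR4, did not follow the other pan-macrophage genes. It measured 13.8, 23.0 and 18.3 FPKM in combination tumours, 18.5, 15.3 and 19.5 in brivanib tumours, 17.8, 25.6 and 17.2 in cisplatin tumours, and 14.8, 18.2 and 16.4 in vehicle tumours. The 4 groups overlapped throughout. For brivanib against vehicle the log2 fold change was 0.10 ± 0.19, with a 95% confidence interval of -0.31 to 0.51. That interval lay below the estimates of the other 5 pan-macrophage genes. It overlapped the intervals of Adgre1 (from 0.24), Csf1r (from 0.43), Lyz2 (from 0.44) and Itgam (from 0.49), but not that of Cd68 (from 0.70). The difference between genes was not tested. Over the 12 libraries the Pearson correlation of log2 values with the mean of the other 5 pan-macrophage genes was 0.09 for Cd14, against 0.69 to 0.89 for Csf1r, Adgre1, Cd68, Lyz2 and Itgam. These correlations describe 12 tumours in 4 groups, which share treatment and marker levels of surrounding tissue.

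Of the 4 lipid-associated genes, Trem2 and Apoe rose with the mean of the pan-macrophage genes over the tumours. Gpnmb and Spp1 had negative correlations with that mean, at -0.52 and -0.34. Trem2 (chromosome 17, 48346401 to 48354147) encodes the lipid-sensing receptor that signals through the adaptor TYROBP. It had 5.12, 1.88 and 7.11 FPKM in combination tumours, 7.59, 7.97 and 10.1 in brivanib tumours, 5.97, 4.01 and 2.60 in cisplatin tumours, and 3.18, 4.54 and 4.04 in vehicle tumours. Every brivanib tumour was above every other tumour. The log2 fold change was 0.96 ± 0.34 for brivanib against vehicle (limma, adjusted p = 0.258) and -0.86 ± 0.34 for the combination against brivanib (adjusted p = 0.164). With 64 to 286 fragments per library, Trem2 was the member with the fewest. Its log2 level relative to the mean of the 6 pan-macrophage genes stayed within -2.38 to -1.52 in all 12 tumours.

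Apoe (chromosome 7, 19696109 to 19699188), the lipoprotein that carries cholesterol out of macrophages, also binds TREM2. Values were 32.7, 48.0 and 126 FPKM in combination tumours, 114, 127 and 85.8 in brivanib tumours, 126, 36.0 and 21.1 in cisplatin tumours, and 23.6, 37.1 and 28.0 in vehicle tumours. Brivanib tumours lay above vehicle tumours, and 1 tumour in each of the other treated groups, combination 4 and cisplatin 1, reached the brivanib level. Apoe had the largest log2 fold change of the 10 genes for brivanib against vehicle, 1.85 ± 0.57, and the widest error (limma, adjusted p = 0.18). Combination 4 and cisplatin 1 were also the highest of their groups for Csf1r, Adgre1, Cd68, Lyz2 and Trem2.

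On average Gpnmb was highest in the combination and lowest with brivanib alone. It encodes a glycoprotein of lysosomes and the cell surface that lipid-loaded phagocytes induce, and lies on chromosome 6 (49036546 to 49070929). Combination tumours had 264, 341 and 256 FPKM, brivanib tumours 169.7, 75.9 and 89.8, cisplatin tumours 205, 212 and 259, and vehicle tumours 149, 133 and 154. The combination and cisplatin tumours were all above the vehicle and brivanib tumours, and brivanib 3 and 5 were the 2 lowest of all 12. Cisplatin 3 lay within the combination range, and brivanib 2 above all vehicle tumours. The combination stood at 0.34 ± 0.24 from cisplatin (limma, adjusted p = 0.837). Means were 287 ± 46.8 FPKM in combination tumours and 112 ± 50.6 in brivanib tumours (SD, n = 3 each), and the log2 fold change of the combination against brivanib was 1.43 ± 0.24 (limma, adjusted p = 0.0122). Without combination 3 this adjusted p was 0.0616, and in a fit to these 2 groups alone it was 0.077. Against vehicle, which averaged 145 ± 11.1 FPKM, Gpnmb stood at 0.97 ± 0.24 in the combination (adjusted p = 0.0573), 0.63 ± 0.24 with cisplatin (adjusted p = 0.258) and -0.46 ± 0.24 with brivanib (adjusted p = 0.506). The value for the combination against vehicle passed the threshold without brivanib 2 (adjusted p = 0.00832), and the value for brivanib against vehicle was then -0.80 (adjusted p = 0.029). The muscle score was highest in brivanib 3 and 5, and its part in the Gpnmb values was not tested beyond the covariate fits that follow. For the combination against brivanib Gpnmb was at 1.03 with the muscle score as a covariate (adjusted p = 0.0257), 1.48 with the adipocyte score (adjusted p = 0.00552) and 1.13 with both (adjusted p = 0.0526), where the call was lost. For brivanib against vehicle it was at 0.07, -0.06 and 0.13 in the same 3 fits.

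The corresponding window of Gpnmb (GRCm38.p6, chr6:49036268-49036567, plus strand), marked in the same way, has no GAGGAA and 1 AP-1 site. The E-box CACGTG and the M-box core CATGTG, which are bound by MITF and its relatives, known regulators of Gpnmb, were searched too. Neither was in this window, and they are in 7.2% and 14.2% of all windows.
Gpnmb: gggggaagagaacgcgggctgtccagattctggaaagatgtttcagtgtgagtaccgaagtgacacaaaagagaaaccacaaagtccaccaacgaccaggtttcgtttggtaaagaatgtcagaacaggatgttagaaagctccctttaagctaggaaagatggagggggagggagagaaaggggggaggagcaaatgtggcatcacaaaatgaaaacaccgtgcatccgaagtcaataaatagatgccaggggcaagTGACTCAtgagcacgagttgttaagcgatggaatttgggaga

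**Figure D2:**
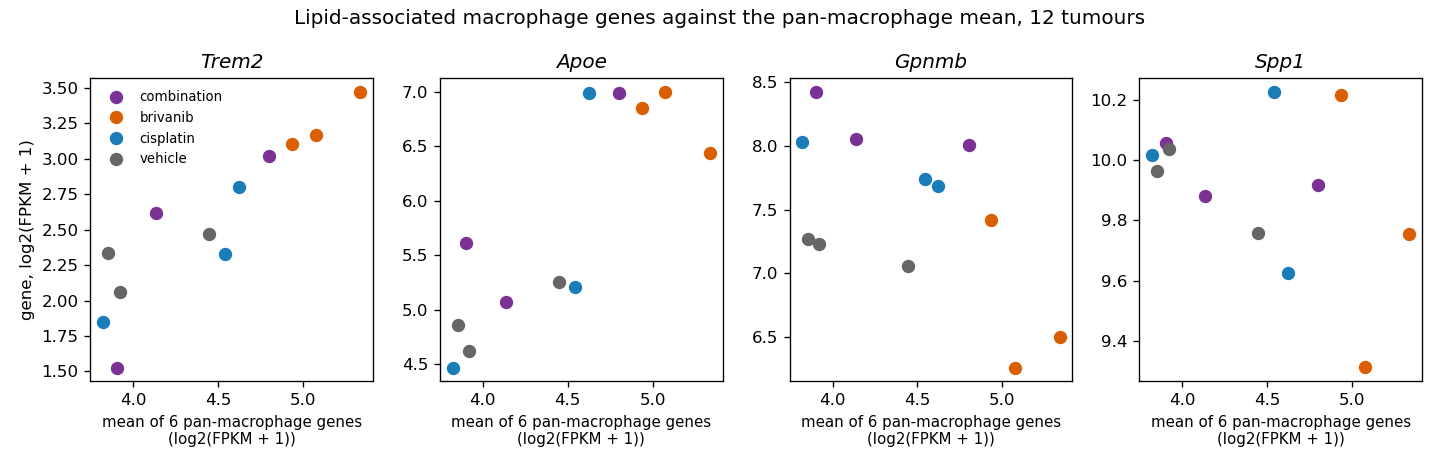
Level of Trem2, Apoe, Gpnmb and Spp1 (vertical axis, log2(FPKM + 1), scales differ) against the mean of the 6 pan-macrophage genes (horizontal axis, same unit) in 12 tumours coloured by group. Trem2 and Apoe go up with the pan-macrophage mean, and Gpnmb is lowest in the 2 brivanib tumours where that mean is highest.

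Spp1 (chromosome 5, 104435118 to 104441050) encodes osteopontin, a secreted ligand of integrins and CD44, and was the most abundant of the 10 in every tumour. FPKM values were 943, 1064 and 967 in combination tumours, 1189.9, 634 and 863 in brivanib tumours, 788, 1197 and 1036 in cisplatin tumours, and 1051, 866 and 998 in vehicle tumours. The groups overlapped, and brivanib alone spanned nearly the whole range. The log2 fold change for brivanib against vehicle was -0.16 ± 0.22 with a 95% confidence interval of -0.63 to 0.31, and for the combination against vehicle 0.03 ± 0.22 with an interval of -0.44 to 0.50. Gpnmb and Spp1 had Pearson correlations of -0.52 and -0.34 with the mean of the 6 pan-macrophage genes over 12 tumours, and of 0.59 with each other, or 0.80 once group means were removed. Trem2 and Apoe had 0.85 and 0.82 with that mean.

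The deposited transcripts of Spp1 begin at 2 places. The transcript with the downstream start (ENSMUST00000112747, from 104436192) held 457 FPKM in combination 2 and 550 in cisplatin 2, or 48.4% and 46.0% of the gene, but 31.9 to 89.9 FPKM, 3.3% to 8.6%, in the other 10 tumours. The upstream start held 486 and 647 FPKM in these 2 tumours and 589 to 1107 in the other 10. RSEM divides fragments between transcripts that share most of their exons, and the division is uncertain. RefSeq has a promoter entry at both starts, plus strand on GRCm38.p6, printed here to show what lies before each.
Spp1 upstream, chr5:104434861-104435160: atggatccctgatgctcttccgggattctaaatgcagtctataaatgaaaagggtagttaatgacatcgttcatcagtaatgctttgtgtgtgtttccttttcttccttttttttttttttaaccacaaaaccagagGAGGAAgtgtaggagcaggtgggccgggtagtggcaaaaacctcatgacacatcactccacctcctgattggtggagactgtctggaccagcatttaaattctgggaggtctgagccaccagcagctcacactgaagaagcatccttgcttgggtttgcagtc
Spp1 downstream, chr5:104435942-104436241: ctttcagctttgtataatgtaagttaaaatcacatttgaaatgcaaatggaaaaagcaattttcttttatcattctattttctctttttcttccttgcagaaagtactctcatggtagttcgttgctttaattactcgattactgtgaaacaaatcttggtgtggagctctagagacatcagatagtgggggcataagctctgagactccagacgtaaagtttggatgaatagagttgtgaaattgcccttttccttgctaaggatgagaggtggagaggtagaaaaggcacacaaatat
The upstream window holds 1 GAGGAA, in capitals, and the downstream window none of the 4 motifs.

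**Figure D3:**
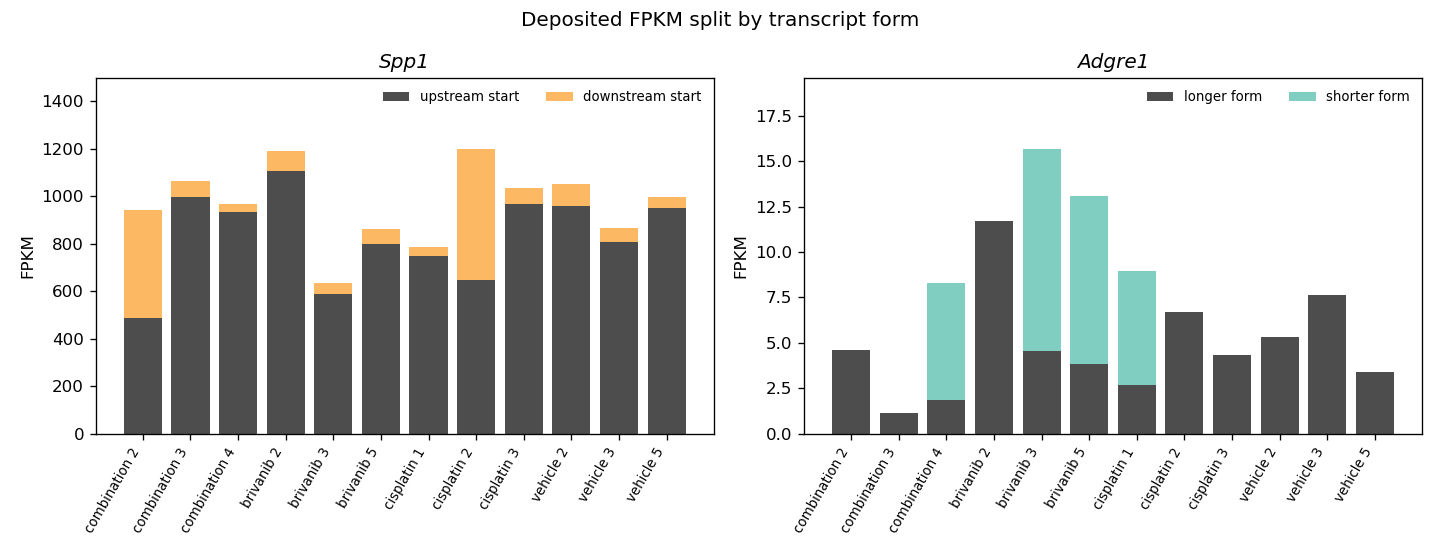
Deposited FPKM (vertical axis) of Spp1 and Adgre1 in each of the 12 tumours, stacked by transcript form. The downstream start of Spp1 takes 48.4% in combination 2 and 46.0% in cisplatin 2, and the shorter form of Adgre1 is present in 4 tumours and listed at 0 in 8.

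Set against the whole transcriptome, brivanib alone changed 1 of the 10 members, Cd68, while 1.82% of all genes were called for brivanib against vehicle, and 1.71% were called higher. At an unadjusted p under 0.05 there were 7 members, and 11.7% of all genes; voom called 0. In 7 of 10 members, Adgre1, Apoe, Cd68, Csf1r, Itgam, Lyz2 and Trem2, every brivanib tumour was above every vehicle tumour, which held for 8.96% of all genes tested. The median log2 fold change of the 10 was 1.14, that of the 6 pan-macrophage members 1.2 and that of the 4 lipid-associated members 0.40, beside -0.01 for all genes. The muscle score was higher in brivanib 3 and 5, at 3.42 and 3.24, than in vehicle tumours, at 0.32 to 0.36. Brivanib 2, at 0.30, was below the vehicle tumours. The adipocyte score moved with this comparison, at 0.89 to 2.71 in brivanib and 0.50 to 0.55 in vehicle tumours. Summed fibroblast markers were 2349 to 2950 FPKM in brivanib and 1407 to 1824 in vehicle tumours, and neutrophil markers summed to 22.8 to 176 FPKM in brivanib and 12.0 to 35.4 in vehicle tumours, with Elane at 0 in all. The part of fibroblasts and neutrophils in the result was not tested. Adding the muscle score to the fit left Cd68 at 1.33 (limma, adjusted p = 0.176) and the adipocyte score at 1.30 (adjusted p = 0.164), so that the fold stayed as large and the call was lost.

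For cisplatin against vehicle limma called 0 of the 10 members, beside 0.19% of all genes. Voom called 0 members and 0 of all genes. At an unadjusted p under 0.05 there was 1 member, Gpnmb, and 14.3% of all genes. Gpnmb was the member whose cisplatin tumours all exceeded the vehicle tumours, which was so for 16.9% of all genes. The 6 pan-macrophage members had a median of 0.26 and the 4 lipid-associated members 0.33. Within the cisplatin group, tumour 1 was high and tumour 3 low in Csf1r, Adgre1, Cd68, Lyz2, Trem2 and Apoe, and the spread between them exceeded the mean difference from vehicle.

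For the combination against vehicle limma called 0 members, 2 at an unadjusted p under 0.05 (Cd68 and Gpnmb) and 0 with voom, beside 2.37% of all genes called and 18.8% at an unadjusted p under 0.05. Those 2 genes did not overlap between the combination and vehicle tumours, as was so in the same direction for 17.2% of all genes. Against cisplatin, 0 of 10 members and 0% of all genes were called, 0 members had an unadjusted p under 0.05, voom called 0, and the groups overlapped in all 10, while 4.95% of all genes were higher and 7.43% lower without overlap. Of all genes 6.74% had an unadjusted p under 0.05 in that comparison.

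The combination differed from brivanib alone by 1 called member, Gpnmb, beside 3.92% of all genes called and 2.06% called higher. At an unadjusted p under 0.05 there were 6 members and 21.7% of all genes. Adgre1, Cd68 and Trem2 were lower in all combination tumours than in all brivanib tumours, a pattern found in 9.13% of all genes, and Gpnmb was higher in all, found in 14.1%. Medians were -0.82 for the pan-macrophage and -0.33 for the lipid-associated members, beside 0.04 for all genes. Without combination 4 limma called 4 members, with Adgre1 at -2.06 (adjusted p = 0.0231), Lyz2 at -1.84 (adjusted p = 0.018), Csf1r at -1.34 (adjusted p = 0.0299) and Gpnmb at 1.51 (adjusted p = 0.0203). Without combination 3 it called 0. Voom on recovered fragments called Adgre1 too, at -2.05 (adjusted p = 0.0495).

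Whether brivanib acted differently with and without cisplatin was tested as an interaction, the difference of the combination from cisplatin less that of brivanib from vehicle. limma called 0 members, with 4 at an unadjusted p under 0.05 and 0 by voom, beside 0.141% of all genes called and 10% at an unadjusted p under 0.05. The 6 pan-macrophage members had a median of -0.98 beside -0.02 for all genes. Among them were Adgre1 at -1.84 ± 0.63 (adjusted p = 0.339), Lyz2 at -1.75 ± 0.60 (adjusted p = 0.337) and Csf1r at -1.17 ± 0.43 (adjusted p = 0.378). Cd14, at -0.24 ± 0.27, lay within 1 SE of 0 and was given no direction. Gpnmb was at 0.80 ± 0.34 (adjusted p = 0.457). Each library enters several of these comparisons, so their values are not independent of each other.

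**Figure D4:**
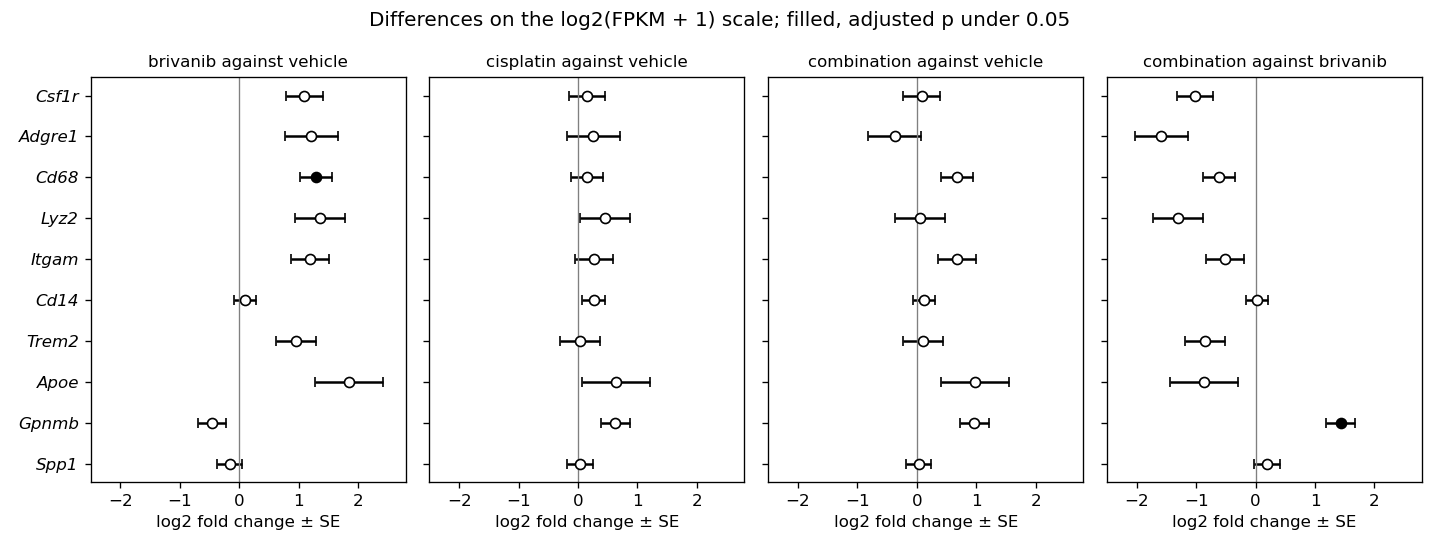
Log2 fold change ± SE (horizontal axis, log2(FPKM + 1) scale) of each of the 10 genes in 4 comparisons, filled where limma's adjusted p was under 0.05. Cd68 is filled for brivanib against vehicle, at 1.30, and Gpnmb for the combination against brivanib, at 1.43.

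The genes around the members were taken from lists of macrophage genes, genes of the lipid-associated state, and ligands and signalling partners. These lists were chosen with earlier results of these data known, so their counts and medians only describe these tumours. Of 30 other macrophage genes 27 were tested, and 6 rose with brivanib against vehicle, beside 1.71% of all genes called higher. The median over the list was 1.26. Cd209f, a C-type lectin of resident macrophages, had 16.6, 13.3 and 18.3 FPKM in brivanib tumours and 0, 0 and 0.277 in vehicle tumours (3.96 ± 0.22, limma, adjusted p = 8.1e-06). The haemoglobin scavenger receptor Cd163 averaged 10.3 ± 2.53 FPKM in brivanib and 0.552 ± 0.373 in vehicle tumours (2.87 ± 0.44, adjusted p = 0.00646). Lyve1, the hyaluronan receptor of perivascular macrophages and lymphatic vessels, averaged 28.2 ± 5.72 FPKM in brivanib and 2.48 ± 2.15 in vehicle tumours (3.22 ± 0.54, adjusted p = 0.00976). Fcgr3, an activating antibody receptor, averaged 41.9 ± 8.83 FPKM in brivanib and 18.5 ± 5.29 in vehicle tumours (1.16 ± 0.22, adjusted p = 0.018), and the scavenger receptor Marco and the sialic acid lectin Siglec1 made up the 6. Cd209f kept its call in all 27 alternatives that gave a value, whereas Cd163, Lyve1 and Fcgr3 lost theirs with either tissue score in the fit. Their folds were then close to those above, at 2.94 and 2.67 for Cd163, 3.14 and 2.95 for Lyve1, and 1.17 and 1.22 for Fcgr3, with the muscle score given before the adipocyte score.

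Of the 27 macrophage genes 4 fell in the combination against brivanib, where 3.92% of all genes were called in either direction. Cd209f stood at 0.374, 0 and 0.624 FPKM in combination tumours, against 13.3 to 18.3 in brivanib tumours (-3.69 ± 0.22, limma, adjusted p = 1.8e-05). Marco (-2.21 ± 0.49, adjusted p = 0.0323), Lyve1 (-2.16 ± 0.54, adjusted p = 0.0486) and Siglec1 (-1.75 ± 0.44, adjusted p = 0.0495) fell too, and the list median was -0.90. Lyve1 lost this call in 17 of 28 alternatives, Siglec1 in 20 of 27 and Marco in 10 of 27. Cd163 was higher in the combination than in vehicle, at 5.23 ± 1.94 FPKM in combination and 0.552 ± 0.373 in vehicle tumours (1.99 ± 0.44, adjusted p = 0.0397), a call lost in 15 of 27 alternatives. Red cell transcripts moved with these groups, summing to 4.54 to 16.5 FPKM in combination, 449 to 2939 in brivanib, 4.44 to 99.6 in cisplatin and 1607 to 3086 in vehicle tumours, and their part in the macrophage values was not tested.

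Of 32 other lipid-associated genes 31 were tested, and brivanib raised 1, the collagen-degrading cathepsin Ctsk, at 14.3 ± 1.79 FPKM in brivanib and 1.92 ± 0.684 FPKM in vehicle tumours (2.41 ± 0.26, limma, adjusted p = 0.000913). The list median was 0.18 for brivanib against vehicle, where 1.71% of all genes were called higher. In the combination against vehicle, Ctsk (1.77 ± 0.26, adjusted p = 0.0101) and the fatty acid importer Cd36 (1.93 ± 0.35, adjusted p = 0.0217) rose and the macrophage elastase Mmp12 fell by 1.79 on the log2 scale (adjusted p = 0.0321). Over all genes 2.37% were called in that comparison. Ctsk is also an osteoclast and fibroblast gene and Cd36 an adipocyte gene. The adipocyte markers, counted without Lpl, Fabp4 and Cd36, summed to 79.9 to 105 FPKM in combination and 22.3 to 22.7 in vehicle tumours. Their part in these values was not tested beyond the covariate fit that follows. With that score as a covariate these 3 calls were lost, with Ctsk at 1.65, Cd36 at 1.89 and Mmp12 at -0.84 (limma, adjusted p = 0.118, 0.168 and 0.225). Between the combination and brivanib limma called 0 of 31, with 6 at an unadjusted p under 0.05 and 1 by voom, and a median of 0.02. Over all genes limma called 3.92% in that comparison, and 21.7% had an unadjusted p under 0.05. For cisplatin against vehicle limma called 0 of 31 lipid-associated and 0 of 27 macrophage genes, with 2 and 3 at an unadjusted p under 0.05 and 0 and 0 by voom. Over all genes limma called 0.19% there, 14.3% had an unadjusted p under 0.05, and voom called 0. The smallest p-value of the lipid-associated list belonged to Ctsk (1.40 ± 0.26, adjusted p = 0.0596).

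Among 28 tested ligands and partners of the members, 3 rose with brivanib, beside 1.71% of all genes called higher than in vehicle. They were Lbp, the plasma protein that loads lipopolysaccharide onto CD14 (2.86 ± 0.27, limma, adjusted p = 0.000545), C3, whose fragment iC3b binds CD11b (3.71 ± 0.48, adjusted p = 0.00343), and Csf2rb, the shared beta chain of the GM-CSF receptor (1.12 ± 0.19, adjusted p = 0.0116). In the combination Lbp (-2.09 ± 0.27, adjusted p = 0.00372) and C3 (-2.18 ± 0.48, adjusted p = 0.0303) fell against brivanib, together with Syk, the kinase downstream of TYROBP (-1.25 ± 0.31, adjusted p = 0.0499). The call of Syk was lost in 22 of 27 alternatives. Monocyte genes gave 3 of 14 higher with brivanib, among them the peptidase Ace (2.09 ± 0.23, adjusted p = 0.00102) and the clotting factor chain F13a1 (2.16 ± 0.41, adjusted p = 0.0195). In the combination against brivanib 3 of the 14 monocyte genes fell and 1 rose, beside 3.92% of all genes called in either direction. The list median was -0.49. Those that fell were the matrix protein Fn1 (-0.90 ± 0.17, adjusted p = 0.0186), F13a1 (-2.02 ± 0.41, adjusted p = 0.0234) and Ace (-1.07 ± 0.23, adjusted p = 0.0251). The gene that rose was Chil3, a chitinase-like protein of monocytes and alveolar macrophages. It stood at 12.3, 52.2 and 13.8 FPKM in combination tumours and 1.72, 1.11 and 3.50 FPKM in brivanib tumours (2.89 ± 0.46, adjusted p = 0.011).

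Other leukocyte lists were measured the same way for brivanib against vehicle, where 1.82% of all genes were called and 1.71% called higher. limma called 0 of 11 neutrophil genes (4 at an unadjusted p under 0.05, 0 by voom), whose median was 1.21, and 0 of 13 T and NK cell genes (2 unadjusted, 0 by voom), whose median was -0.34. Of all genes 11.7% had an unadjusted p under 0.05. Pan-leukocyte genes gave 2 of 13, Arhgdib (0.87 ± 0.17, adjusted p = 0.0242) and Laptm5 (0.78 ± 0.16, adjusted p = 0.0312), with a median of 0.49. Mast cell genes gave 4 of 6 with limma and 1 with voom, with a median of 1.77, and of these calls Mcpt4 lost its own in 22 of 27 alternatives and Cpa3 and Cma1 theirs in 13 of 27 each. Fibroblast genes gave 7 of 17 with limma and 5 with voom, with a median of 0.70.

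**Figure D5:**
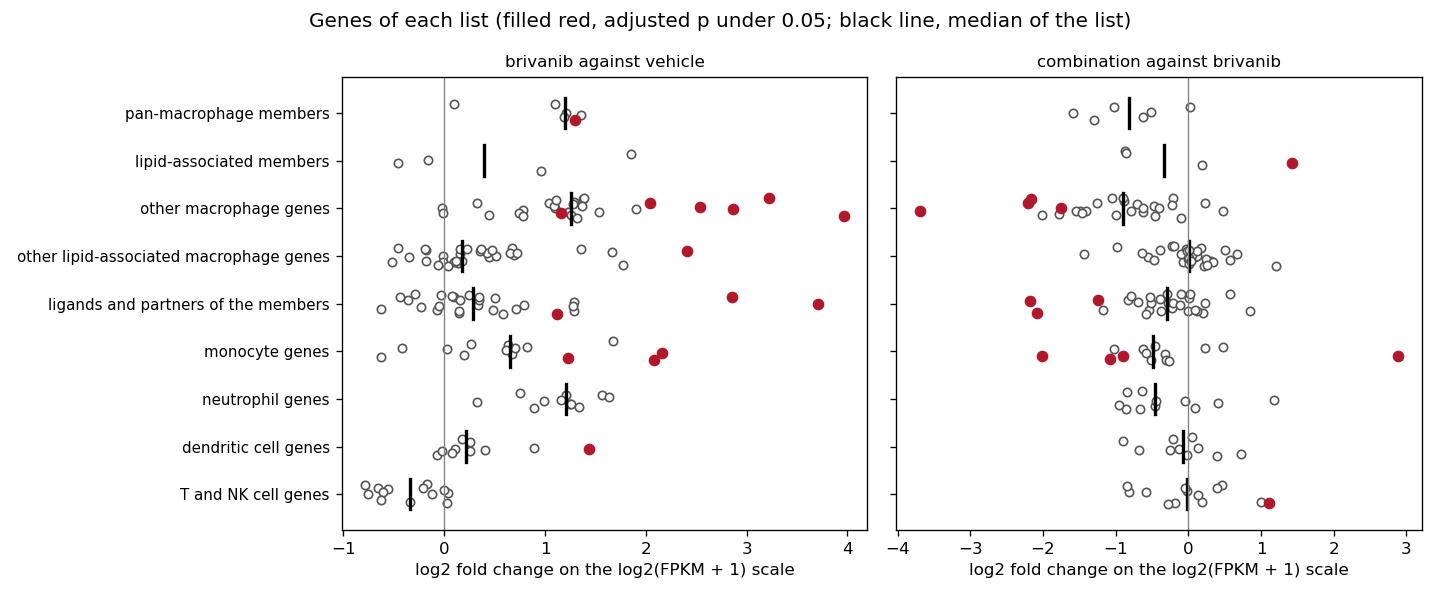
Log2 fold change (horizontal axis) of each tested gene of 9 lists, for brivanib against vehicle and for the combination against brivanib; red points passed limma's test and the black line is the list median. Other macrophage genes have a median of 1.26 on the left and -0.90 on the right, and other lipid-associated genes 0.18 and 0.02. The lists were chosen with earlier results of these data known.

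The genes whose levels followed the members most closely over the 12 tumours were read from Pearson correlations of log2 values. With the mean of the 6 pan-macrophage members these were Nckap1l (0.97), a blood cell regulator of actin, the GM-CSF receptor alpha chain Csf2ra (0.97), the macrophage transcription factor Maf (0.97) and the complement receptors C3ar1 (0.97) and C5ar1 (0.97). With the mean of the 4 lipid-associated members they were Creg1 (0.87), a lysosomal glycoprotein, Ctdp1 (0.87), a phosphatase of RNA polymerase II, the matrix protein Ecm1 (0.85), Pde6h (0.85) and the actin bundler Pls3 (0.84). The likeness was closer for the pan-macrophage mean than for the lipid-associated mean, whose 4 members differ among themselves. Each named gene is among the highest of all tested genes outside the members. With 12 tumours such a selection yields high correlations also among unrelated genes, and none was tested.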

How the data were processed

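RNA of 12 bulk LLC tumours was sequenced. Per the labels' design text, reads from a BGISEQ-500 were aligned with Bowtie2 and transcript levels estimated with RSEM, and the submitters' processing notes give versions 2.2.5 and 1.2.12 and also name HISAT, Bowtie and the build mm9. The authors deposited 1 table of FPKM per transcript. Of its 135276 transcripts 134952 were found in GENCODE release M21 (GRCm38, mm10), 98.46% with identical coordinates, so positions are on GRCm38. No strand setting is given in the sources used here. Another 1 per-sample column matched no sample and was not used, and 3 lines with broken annotation were dropped.

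Transcript FPKM were summed by deposited gene name. Genes with a mean of at least 1 FPKM, 14231, entered limma 3.58.1 (R 4.3.3) as log2(FPKM + 1), with a mean per group over 12 libraries, 8 residual degrees of freedom, a variance trend, two-sided tests and Benjamini-Hochberg adjustment over all genes at 0.05. Fold changes on this scale understate those of low genes. FPKM steps gave whole fragments (within 0.01) for 100.0% of low values up to 100 fragments, which gives the depths. The procedure was tested on simulated data. Genes named are the 10 members, up to 4 called genes of each list and comparison by the moderated statistic, or the 1 with the smallest p, and the 5 closest in pattern; Marco and Siglec1 for brivanib against vehicle, and genes like a single member, were named after their values were seen. Some genes that this rule names are not reported here. The members and lists were chosen with earlier results of these data known. Same-numbered tumours of different groups had correlations of deviations of -0.157 to 0.099, so the numbers were not taken as pairs. Libraries of a group correlated at 0.9492 to 0.9802. Alternatives covered pseudocount, filter, scaling, voom, covariates, the block, transcripts and each library left out.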

Additional observations from a re-analysis of the deposited data

Results flagged for a closer look

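The effect of brivanib in the presence of cisplatin differed from its effect alone, by limma's interaction test over all 14231 genes, in 4 genes of the lists. Over all genes 0.141% were called. The lists were chosen with earlier results of these data known. Voom called 0 genes of the macrophage, partner and fibroblast lists for this interaction. The macrophage lectin Cd209f differed by -3.67 ± 0.31 (log2, adjusted p = 0.000923). Its tumours had 0.374, 0 and 0.624 FPKM in the combination, 13.3 to 18.3 in brivanib, 0.223, 0 and 0 in cisplatin, and 0, 0 and 0.277 in vehicle. The lipopolysaccharide-binding protein gene Lbp differed by -2.56 ± 0.38 (adjusted p = 0.0273), with 0.476 to 1.13 FPKM in the combination, 5.37 to 7.62 in brivanib, 0.135 to 1.24 in cisplatin and 0 to 0.094 in vehicle tumours. The fibroblast genes Pi16 and Fbln1 differed by -3.40 ± 0.41 (adjusted p = 0.0128) and -3.00 ± 0.45 (adjusted p = 0.0273). Of 26 alternatives Cd209f lost the call in 2 (pseudocount 0.1 and voom), Pi16 in 6, Lbp in 12 and Fbln1 in 16.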

How the results depend on the processing

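Under 28 alternatives, the 60 member values (10 genes, 6 comparisons) gave 1670 alternative values, of which 109 had the opposite sign, 102 of them from values that lay within 1 SE of 0 and were given no direction. The other 7 were Gpnmb for brivanib against vehicle (0.074 with the muscle score and 0.13 with both tissue scores as covariates), Apoe for the combination against vehicle (-0.018 with both scores), Apoe for cisplatin against vehicle (-0.17 with the replicate block and -0.071 without cisplatin 1, in a range of -0.071 to 1.188 leaving out a library), Itgam for the combination against brivanib (0.31) and Trem2 for the interaction (0.36), both with the most abundant transcript, which leaves out other transcripts. The cause was not tested for the rest. For brivanib against vehicle 0 members were called with no filter, a minimum of 5 FPKM, equal totals, quantile normalization, ribosomal features removed, voom, the muscle score, the adipocyte score, both, or the most abundant transcript, 4 with only the groups compared, and 0 to 2 leaving out a library. Cd68 lost its call there in 18 of 28 alternatives. For the combination against vehicle 1 was called, Gpnmb, under quantile normalization, only the groups compared and the muscle score, and 0 to 1 leaving out a library. For the combination against brivanib 2 were called with voom, 0 with only the groups compared, both scores or the replicate block, and 0 to 4 leaving out a library; Gpnmb lost its call in 4 of 28. For cisplatin against vehicle, the combination against cisplatin and the interaction the count was 0 in every alternative run. With the replicate number as a block, Cd68 for brivanib against vehicle was at 1.30 (adjusted p = 0.067), Apoe at 1.85 (adjusted p = 0.0126) and Gpnmb for the combination against brivanib at 1.47 (adjusted p = 0.0743); brivanib and vehicle tumours did not all correlate best with their own number. Over all genes, 25 (both scores) to 377 (no filter) were called for brivanib against vehicle, beside 259, and 0 to 100 for cisplatin, beside 27. For the combination against vehicle 8 to 523 were called, beside 337, for the combination against brivanib 55 to 633, beside 558, for the combination against cisplatin 0 to 3, beside 0, and for the interaction 0 to 43, beside 20. Fits of edgeR were not run, since the deposited unit is FPKM, and the interaction could not be fitted to fewer than 4 groups. Groups of 3 and the spread of Trem2, down to 64 fragments, and Adgre1, down to 83, limit what can be told apart.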

Other observations

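Chosen after the values were seen, the genes closest in pattern to Gpnmb over the 12 tumours were Xdh (Pearson 0.99), the xanthine oxidoreductase, the small Maf factor Mafk (0.98), Stambpl1 (0.97), Eif5a2 (0.97) and Klf9 (0.96). Those closest to Spp1 were the arginine deiminase Padi2 (0.96), the granzyme genes Gzme (0.96), Gzmd (0.95) and Gzmg (0.95), and Fcrl6 (0.95). The granzymes are near-identical copies, so the division of fragments among them is uncertain.

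Mast cell genes fell in the combination against brivanib in 4 of 6 tested with limma and 3 with voom, beside 3.92% of all genes called in either direction with limma. The 4 were Tpsb2 (-2.24 ± 0.32, limma, adjusted p = 0.00646), Cpa3 (-1.90 ± 0.34, adjusted p = 0.0141), Mcpt4 (-2.37 ± 0.43, adjusted p = 0.0146) and Cma1 (-2.24 ± 0.44, adjusted p = 0.0208), and the mast cell list summed to 6.14 to 9.32 FPKM in combination and 28.4 to 50.2 in brivanib tumours. The NK cell receptor gene Klrb1c was higher in the combination, at 4.13 ± 1.41 FPKM in combination and 1.32 ± 0.29 in brivanib tumours (1.11 ± 0.26, adjusted p = 0.0394), a call lost in 15 of 27 alternatives. Klrb1c was the 1 call among 13 tested T and NK cell genes, beside 2.06% of all genes called higher. Of those 13 genes 6 had positive and 7 negative values against brivanib, with a median of -0.025. Resistin, Retn, an adipocyte gene in mice, was higher in the combination, at 4.31, 3.05 and 2.17 FPKM, than in vehicle, where it was listed at 0 in 3 of 3 tumours (limma, adjusted p = 0.0394), a call lost in 11 of 24 alternatives.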
